A study of Mus musculus with 9 samples.

Results

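The genes described here serve the endoplasmic reticulum (ER), the compartment in which cells fold and export secreted and membrane proteins. They are a chosen set of 41 genes, matched exactly to the gene symbols of the array's annotation, of which 39 of them had a probe set of their own, among 18193 genes measured in all. Sec61g and Ero1l had none under these rules. By role, 15 measured members fold proteins, 10 move them into the ER and process them there, 8 dispose of misfolded ones and 6 signal ER stress. They hold 94 of the 45037 probe sets tested, and the brightest probe set over the 9 arrays stood for each gene.

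The arrays compared 4 frozen samples of healthy wild-type mouse spleen with 5 of splenic lymphoma from Sca1-MALT1 transgenic mice, with 1 Affymetrix array for each sample. Sca1-MALT1 mice carry MALT1, a protease and scaffold of antigen receptor signalling, under regulatory elements of the Sca1 gene, which is active in blood stem and progenitor cells. The series title describes them as a model of MALT lymphoma, a B-cell lymphoma. Sample labels carry numbers but do not tie each one to a separate animal, so the p-values cover only the variation among these arrays, which may be partly technical. Whole tissue was measured, so fewer cells of a type and less RNA per cell cannot be told apart.

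Proteins enter the ER through the Sec61 channel, lose their signal peptide to the signal peptidase complex and fold with the help of chaperones and disulphide isomerases. Molecules that fail are drawn back to the cytosol and degraded. When unfolded protein accumulates, the sensors ATF6, IRE1 (the product of Ern1) and PERK (the product of Eif2ak3) start the unfolded protein response, which raises folding capacity and slows translation. Plasma cells, which secrete antibody, depend on this machinery more than resting B cells do.

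ATF6 acts with the factor NF-Y at a bipartite sequence, the ER stress response element. Its parts, CCAAT and CCACG with 9 free bases between them, were searched together on both strands of the RefSeq promoter windows of build GRCm38.p6, which run from 250 bases before to 50 after a gene's start and hold 32 of the 41 members. The element was present for 9 of these 32 genes (28.1%), against 37 of 27025 genes in the whole table (0.137%), or 0.119% of all promoter windows. By role it occurred in 7 of 13 folding members, 2 of 7 degradation members, 0 of 7 translocation members and 0 of 5 stress signalling members. The sites of these 9 genes are shown because they share this sequence, which most members with a window lack. Each is printed 5′ to 3′ along the element, with its fixed letters in capitals and the spacer in lower case, and Hsp90b1 has a pair.
Hspa5: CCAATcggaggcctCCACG
Hsp90b1, distal: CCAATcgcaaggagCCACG
Hsp90b1, proximal: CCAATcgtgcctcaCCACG
Calr: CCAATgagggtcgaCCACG
Canx: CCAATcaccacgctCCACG
Creld2: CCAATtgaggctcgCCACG
Dnajc3: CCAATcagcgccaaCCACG
Pdia6: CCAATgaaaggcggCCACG
Derl3: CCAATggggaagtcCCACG
Syvn1: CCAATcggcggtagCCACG

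Those of Calr, Creld2, Derl3 and the proximal one of Hsp90b1 lay on the reverse strand relative to the gene. In every one of the 9 genes the element lay upstream of the start, between positions -212 and -26 counted from it. The 250 bases before the start follow for the member with the largest difference between the groups, for the best-known target and for the one with a pair of elements, with the fixed letters in capitals.
Creld2, chr15:88819396-88819645, + strand: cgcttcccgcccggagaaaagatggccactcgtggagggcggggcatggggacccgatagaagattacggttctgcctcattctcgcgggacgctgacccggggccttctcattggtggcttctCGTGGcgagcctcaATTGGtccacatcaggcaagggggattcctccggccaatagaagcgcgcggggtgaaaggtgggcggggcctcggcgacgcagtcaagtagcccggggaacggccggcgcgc
Hspa5, chr2:34771840-34772089, + strand: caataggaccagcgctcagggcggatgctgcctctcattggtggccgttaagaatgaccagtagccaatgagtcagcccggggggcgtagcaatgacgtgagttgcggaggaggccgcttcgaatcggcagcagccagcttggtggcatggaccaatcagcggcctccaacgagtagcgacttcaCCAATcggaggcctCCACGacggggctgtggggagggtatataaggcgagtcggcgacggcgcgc
Hsp90b1, chr10:86705445-86705694, - strand: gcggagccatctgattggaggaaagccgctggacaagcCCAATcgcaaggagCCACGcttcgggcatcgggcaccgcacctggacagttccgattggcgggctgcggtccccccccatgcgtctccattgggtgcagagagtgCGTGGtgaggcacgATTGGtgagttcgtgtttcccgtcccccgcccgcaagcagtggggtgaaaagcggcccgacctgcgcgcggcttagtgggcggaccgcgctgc

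Other stress elements were rarer among the members. The shorter ER stress response element II, ATTGG and CCACG with 1 free base between them, which shares the latter part with the first element, was found for Herpud1 and Dnajb11 (2 of 32 genes, against 0.0444% of all genes). TGACGTG, the core bound by XBP1 and ATF6, was found for Hspa5 alone among the members (2.22% of all genes). TGATGCAA, an element bound by ATF4, was found on the reverse strand of Herpud1 alone (1.03% of all genes). Both strands were searched each time. A match shows that the letters are present, not that a factor binds there. Only exact matches of the fixed letters were counted, so a window said to lack an element may hold a variant of it.

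**Figure D1:**
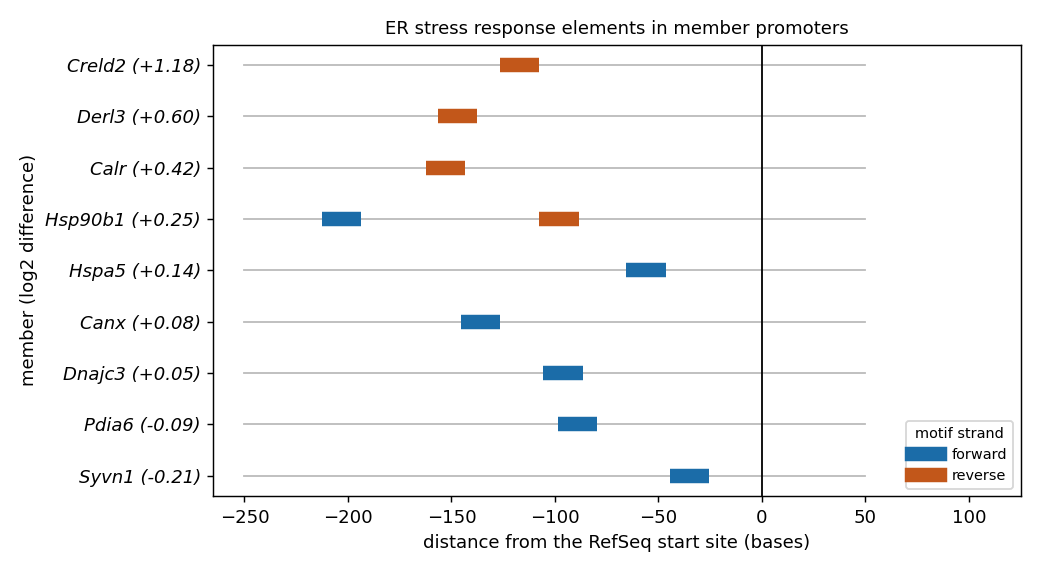
ER stress response elements in the promoter windows of the 9 members that hold one. The horizontal axis is the distance from the RefSeq start site in bases, blocks are elements coloured by strand, and the number beside each gene is its log2 difference, lymphoma minus wild-type, from 1.18 for Creld2 to -0.21 for Syvn1.

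The 9 members with the element had a median log2 difference between lymphoma and wild-type of 0.14 (7 positive, 2 negative), and the 22 measured members whose window lacks it had 0.16 (20 positive, 2 negative). Of the 37 genes with the element 20 were measured, and their median was 0.10. A log2 difference of 1 is a doubling, and every difference here is lymphoma minus wild-type. The 6 folding members whose window lacks the element had a median of 0.17, against 0.14 for the 7 that hold it.

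No member passed the test between lymphomas and wild-type spleens. Limma, fitted over all 18193 genes with Benjamini-Hochberg adjustment, called 0 of 39 members at an adjusted p under 0.05, against a background of 0.715% of all genes (0.407% higher and 0.308% lower in lymphoma). At an unadjusted p under 0.05 limma had 3 members higher (Creld2, Spcs3 and Manf) and 1 lower (Eif2ak3). These are 7.69% and 2.56% of the members, and over all genes the shares were 6.69% higher and 8% lower, so that neither count stands above the background by much. Both directions together made up 10.3% of the members and 14.7% of all genes. For 0 of 39 members did the 4 wild-type and 5 lymphoma values lie apart without overlap, against 7.33% of all genes (3.29% higher and 4.04% lower in lymphoma).

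Most differences were nevertheless positive and small. Of the 39 members 35 had a positive difference, against 50.3% of all genes, and their median was 0.14, against 0.0012 over all genes. Creld2 and Derl3 alone among the members reached 0.5, where 5.05% of all genes did, and 0 members stood at -0.5 or below, where 2.89% of all genes did. The medians were 0.17 for folding, 0.15 for translocation, 0.10 for degradation and 0.12 for stress signalling members. These are counts and medians of genes chosen with earlier results of these data known, and carry no test of their own.

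**Figure D2:**
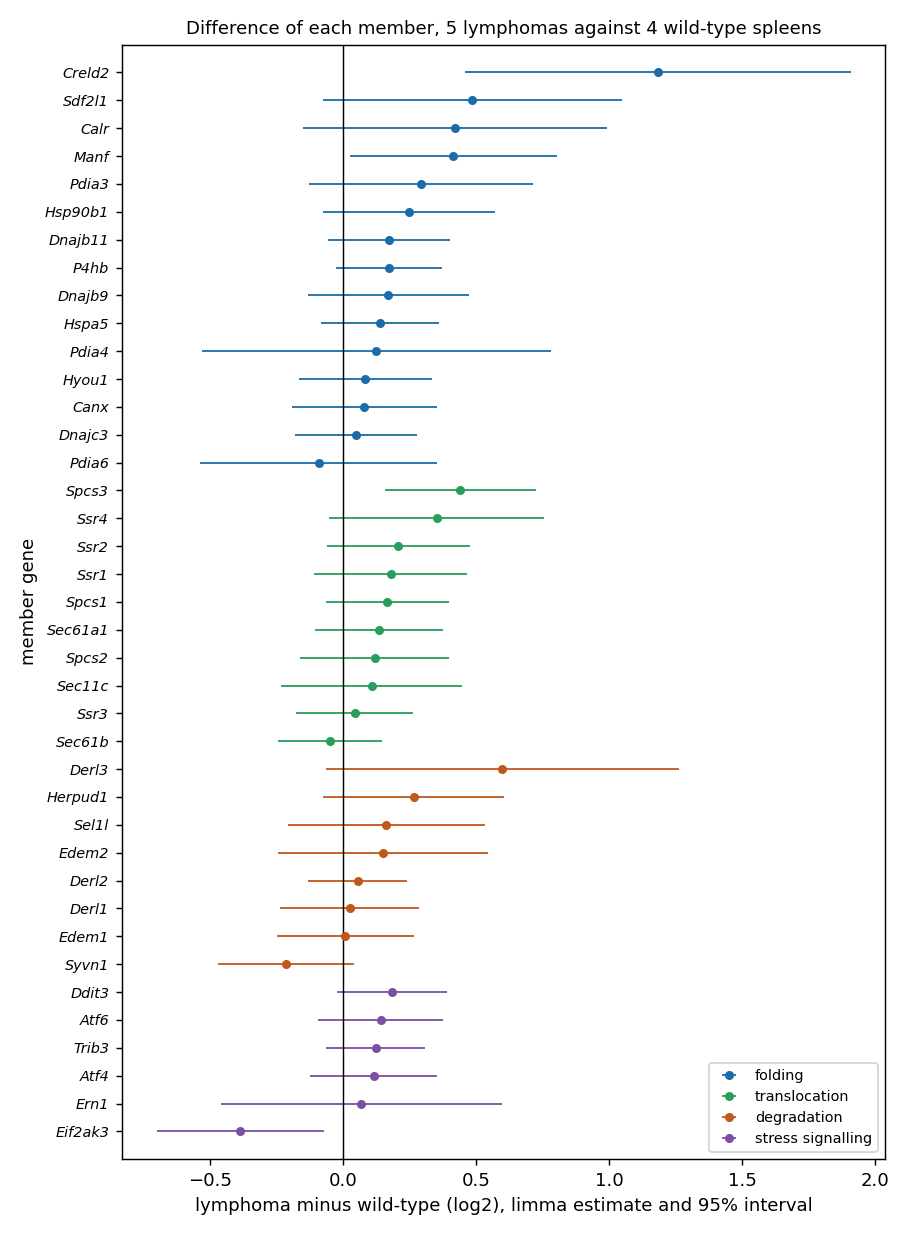
Difference of each measured member between 5 lymphomas and 4 wild-type spleens on the log2 scale, with the 95% interval of the limma estimate, coloured by role. The points lie mostly to the right of 0, and the intervals of Creld2, Spcs3, Manf and Eif2ak3 exclude 0 before adjustment.

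The lymphomas differed among themselves more than the wild-type spleens did. The SD was larger in lymphoma for 37 of 39 members (94.9%), against 78.9% of all genes. Lymphoma 5 had the highest value of all 9 arrays for 22 members (56.4%, against 12.6% of all genes). Lymphoma 4 had the lowest for 20 members (51.3%, against 10.5% of all genes). It lay below every wild-type spleen for 22 (56.4%, against 27.4% of all genes) and above every one for 5 (12.8%, against 30.3%). Lymphoma 5 lay above every wild-type spleen for 35 members (89.7%, against 31.9% of all genes) and lymphoma 3 for 30 (76.9%, against 25.1%). For lymphomas 2 and 1 the counts were 23 and 22 (59% and 56.4%, against 29.3% and 30.6%). Averaged over the 39 members, the deviation from the wild-type mean was 0.43 in lymphoma 5, 0.25 in lymphoma 3, 0.19 in lymphoma 1, 0.16 in lymphoma 2 and -0.15 in lymphoma 4, while the wild-type spleens lay between -0.024 and 0.032. The calls are therefore also given without lymphoma 4, and so are the differences of several members.

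**Figure D3:**
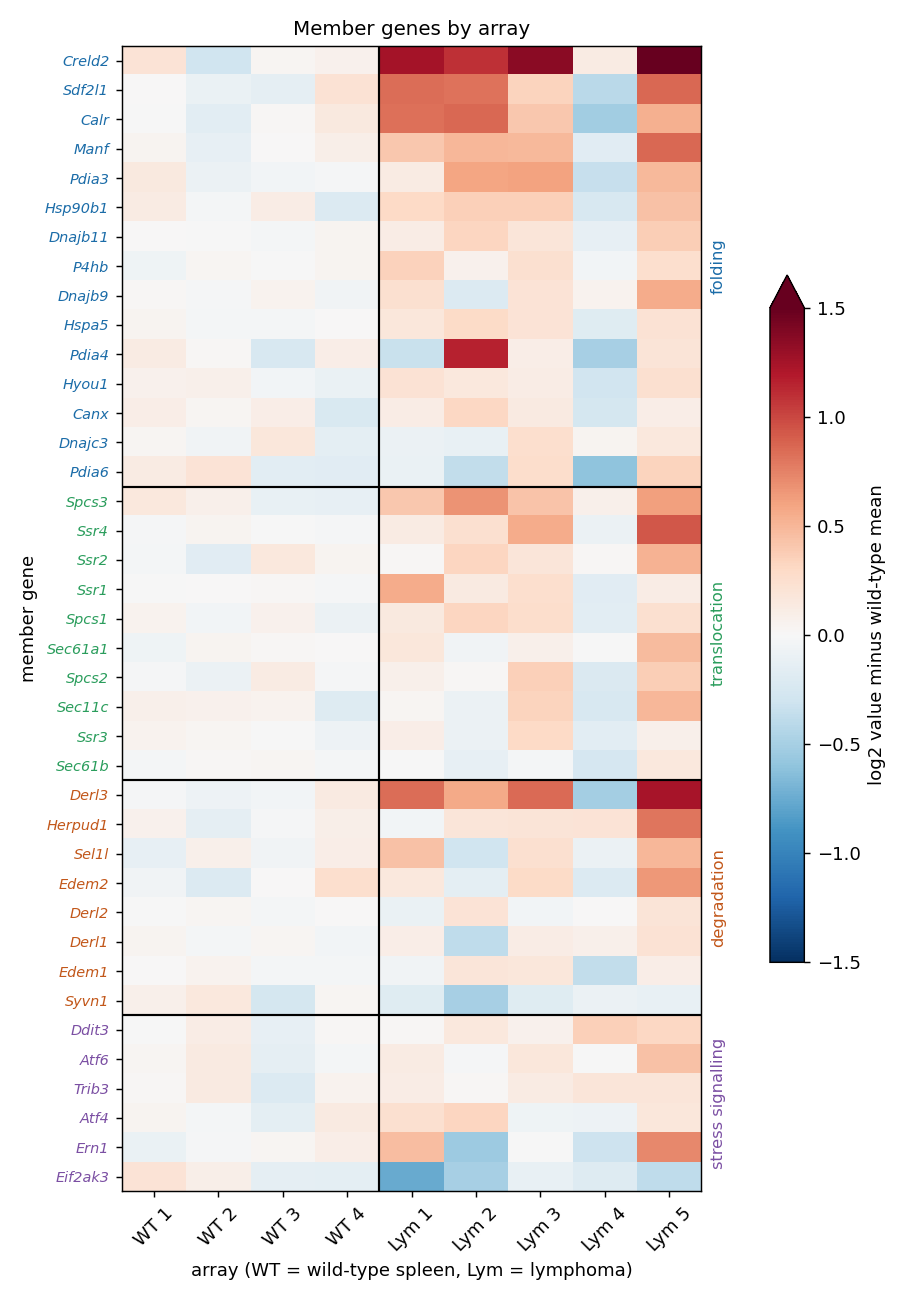
Log2 value of each of the 39 measured members minus its mean over the 4 wild-type spleens, for each array (columns) and gene (rows, grouped by role and ordered by difference). Red is higher and blue lower than the wild-type mean, and the colour scale ends at 1.5, which Creld2 exceeds in lymphoma 5. The column of lymphoma 5 is mostly red and that of lymphoma 4 mostly blue.

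Folding genes held the largest difference. Creld2 encodes a secretory pathway isomerase that is induced by ER stress. Its log2 levels were 10.70, 10.20, 10.52 and 10.56 in wild-type spleens 1 to 4 and 11.74, 11.59, 11.85, 10.62 and 12.59 in lymphomas 1 to 5. Only lymphoma 4 fell within the wild-type range, and the other 4 lymphomas lay above it. Creld2 averaged 10.49 ± 0.21 (SD, n = 4) in wild-type and 11.68 ± 0.71 (SD, n = 5) in lymphoma, a 2.27-fold difference (log2 1.18, SE 0.32, limma adjusted p = 0.142). Without lymphoma 5 its log2 difference was 0.95, and without lymphomas 3 and 5 it was 0.82.

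Sdf2l1, a cofactor of the ER Hsp70 chaperone, stood at 8.82, 8.71, 8.68 and 9.03 in the wild-type spleens and at 9.65, 9.62, 9.14, 8.40 and 9.67 in the lymphomas. Again lymphoma 4 alone was not above the wild-type range, here lying below it. The difference was 0.49 ± 0.25 (SE; limma adjusted p = 0.414), or 0.71 without lymphoma 4. Without lymphomas 1 and 2 it was 0.26.

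The lectin chaperone calreticulin, encoded by Calr, helps glycoproteins to fold and binds calcium. Calr levels were 12.20, 12.05, 12.23 and 12.36 in wild-type and 13.04, 13.07, 12.62, 11.69 and 12.74 in lymphoma. Lymphomas 1 and 2 were highest for this gene and lymphoma 4 lowest of all 9 arrays. Calr differed by 0.42 ± 0.25 (SE; limma adjusted p = 0.489), or by 0.66 without lymphoma 4, and its other 2 probe sets by 0.49 and 0.48. Without lymphomas 1 and 2 Calr stood at 0.14.

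Manf, a small secreted ER protein that protects stressed cells, stood at 11.24, 11.07, 11.20 and 11.28 in wild-type and at 11.60, 11.69, 11.68, 11.03 and 12.06 in lymphoma. Here too 4 lymphomas lay above the wild-type range and lymphoma 4 below it. The difference was 0.41 ± 0.17 (SE; limma adjusted p = 0.311), or 0.56 without lymphoma 4. It was 0.30 without lymphoma 5 and 0.24 without lymphomas 3 and 5.

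The central Hsp70 chaperone BiP, encoded by Hspa5, differed little by its brightest probe set. Hspa5 levels were 13.58, 13.51, 13.51 and 13.54 in wild-type and 13.71, 13.82, 13.74, 13.35 and 13.75 in lymphoma. Lymphoma 4 lay 0.36 below the nearest other lymphoma and below all the wild-type spleens. The difference was 0.14 (95% interval -0.082 to 0.36), with a limma adjusted p of 0.559, and stood at 0.22 without lymphoma 4. Without lymphomas 1 and 2 it stood at 0.080. The dimmer Hspa5 probe sets differed by 0.31 and 0.04.

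The other folding members differed by 0.29 or less by their brightest probe sets. The ER Hsp90 chaperone gene Hsp90b1 differed by 0.25, and its dimmer probe set by 0.64. The calreticulin partner and isomerase gene Pdia3 differed by 0.29, and the co-chaperone genes Dnajb11 and Dnajb9 by 0.17 each. P4hb, which encodes protein disulphide isomerase, differed by 0.17, the Hsp70-like gene Hyou1 by 0.08, the lectin chaperone gene Canx by 0.08 and the co-chaperone gene Dnajc3 by 0.05. Without lymphoma 4 Pdia3 stood at 0.45, Hsp90b1 at 0.37, Pdia4 at 0.28, Hyou1 at 0.18 and Canx at 0.17. Leaving out lymphomas 3 and 5 instead gave 0.12, 0.14, 0.11, 0.026 and 0.056 for the same genes. Without lymphoma 5 Dnajb9 stood at 0.074. Pdia4 had its highest value by far in lymphoma 2 (11.02, against 9.37 to 10.06 in the others), with a difference of 0.13 that turned to -0.13 without it. Pdia6 was the folding member with a negative difference (-0.09), and without lymphoma 4 it stood at 0.037. Without lymphoma 5 Pdia6 stood at -0.20, and without lymphomas 3 and 5 at -0.36. Limma adjusted p-values of the folding members lay between 0.142 and 0.882. Lymphoma 4 was the lowest of the 9 arrays for 11 of these 15 genes (73.3%, against 10.5% of all genes).

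**Figure D4:**
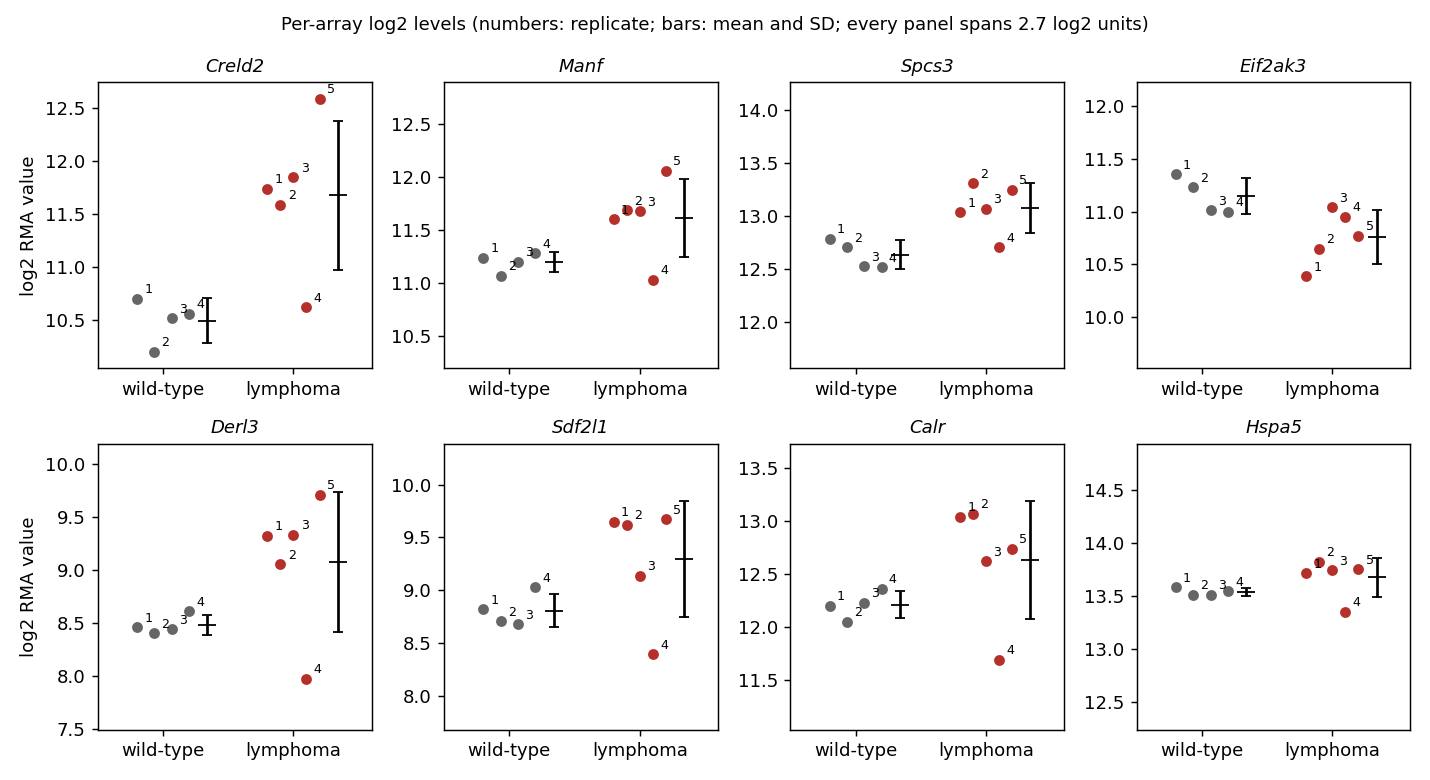
Log2 levels of 8 members in each wild-type spleen (grey) and lymphoma (red), numbered by replicate, with the mean and SD of each group. All panels span the same height, and lymphoma 4 is the lowest lymphoma in every panel except that of Eif2ak3.

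Among genes of entry into the ER, Spcs3 differed most. It encodes a subunit of signal peptidase. Spcs3 levels were 12.79, 12.71, 12.53 and 12.52 in wild-type and 13.04, 13.31, 13.07, 12.71 and 13.25 in lymphoma. All the lymphomas except lymphoma 4 were above the wild-type range. The difference was 0.44 ± 0.13 (SE), or 1.36-fold, with a limma adjusted p of 0.163.

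Ssr4 encodes a subunit of the translocon-associated protein complex, which assists the Sec61 channel. Its levels were 11.20, 11.26, 11.22 and 11.21 in wild-type and 11.35, 11.46, 11.78, 11.14 and 12.15 in lymphoma. The wild-type spleens were nearly equal, and the lymphomas spread over 1 log2 unit with lymphoma 5 at the top. Ssr4 differed by 0.35 ± 0.18 (SE; limma adjusted p = 0.409), or by 0.21 without lymphoma 5, and its other 2 probe sets stood at -0.21 and -0.23.

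Ssr2, of the same complex, had levels of 10.03, 9.89, 10.21 and 10.10 in wild-type and 10.07, 10.38, 10.24, 10.08 and 10.58 in lymphoma. Lymphomas 5 and 2 lay above the wild-type range and lymphoma 3 just above it, with lymphomas 1 and 4 inside. The difference was 0.21 ± 0.12 (SE; limma adjusted p = 0.466), or 0.13 without lymphoma 5.

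The other subunits differed less. Ssr1 and Ssr3, of the same complex, stood at 0.18 and 0.04, and the signal peptidase genes Spcs1, Spcs2 and Sec11c, of which Sec11c encodes a catalytic subunit, at 0.17, 0.12 and 0.11. The channel genes Sec61a1 and Sec61b stood at 0.13 and -0.05, the latter with a 95% interval of -0.25 to 0.15. Without lymphoma 5 Sec61a1 stood at 0.049, Spcs2 at 0.058 and Sec11c at 0.0094, and without lymphoma 1 Ssr1 stood at 0.083. Lymphoma 5 was above every wild-type spleen for all 10 measured translocation members (against 31.9% of all genes). Lymphoma 4 was below every one for 7 of them (against 27.4% of all genes).

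Among the degradation genes Derl3 differed most. Derl3, a channel component of ER-associated degradation that is prominent in secretory cells, stood at 8.46, 8.40, 8.44 and 8.61 in wild-type and at 9.32, 9.05, 9.33, 7.97 and 9.71 in lymphoma. All lymphomas but lymphoma 4 were above the wild-type range, and lymphoma 4 was below it. Derl3 differed by 0.60 ± 0.30 (SE; limma adjusted p = 0.391). Without lymphoma 5 it stood at 0.44, and without lymphomas 3 and 5 at 0.30.

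Herpud1, a stress-induced scaffold of the degradation complex, had levels of 11.44, 11.25, 11.36 and 11.47 in wild-type and 11.34, 11.56, 11.57, 11.58 and 12.18 in lymphoma. Lymphoma 5 stood 0.60 above the next, and the remaining lymphomas were within 0.11 of the wild-type range or inside it. The difference of 0.27 (limma adjusted p = 0.464) was 0.13 without lymphoma 5.

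Syvn1 encodes the ubiquitin ligase of the complex and had the opposite sign. Its levels were 11.84, 11.92, 11.50 and 11.80 in wild-type and 11.58, 11.27, 11.58, 11.68 and 11.65 in lymphoma. Lymphoma 2 was the lowest, and the others lay inside the wild-type range. Syvn1 differed by -0.21 ± 0.11 (SE; limma adjusted p = 0.432).

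Sel1l, the partner of that ligase, stood at 0.16 and the mannosidase-like genes Edem2 and Edem1, which mark misfolded glycoproteins, at 0.15 and 0.0088. Without lymphoma 5 Sel1l stood at 0.077 and Edem2 at 0.025, and without lymphomas 3 and 5 Edem2 stood at -0.064. Derl2 and Derl1, relatives of Derl3, stood at 0.05 and 0.02. The dimmer Edem1 probe set stood at 0.39, those of Derl1 between -0.00093 and 0.34, and that of Derl2 at -0.17. A dimmer Sel1l probe set was the only one of the 94 whose lymphoma values (6.37 to 6.98) all lay above its wild-type values (6.24 to 6.28). It differed by 0.55, with a limma adjusted p of 0.102 over all probe sets. This 1 of 94 does not exceed the share of all genes that lay apart and higher (3.29%). The share over all probe sets was not counted. The values of this probe set lay near or below the array medians (6.88 to 6.97).

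Stress signalling genes showed small differences, and the sensor gene Eif2ak3 was lower. PERK, its product, slows translation under ER stress. Eif2ak3 levels were 11.35, 11.23, 11.01 and 11 in wild-type and 10.39, 10.65, 11.04, 10.95 and 10.77 in lymphoma. Lymphoma 3 lay just inside the wild-type range and the other 4 below it. Eif2ak3 differed by -0.39 ± 0.14 (SE), or 0.765-fold, with a limma adjusted p of 0.251.

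A second, dimmer Eif2ak3 probe set stood between 6.16 and 6.52 in wild-type and between 5.67 and 6.09 in lymphoma. It was the only member probe set with all lymphomas below all wild-type spleens (difference -0.46, limma adjusted p = 0.126 over all probe sets). Of all genes 4.04% lay apart and lower, and the share over all probe sets was not counted. The values of this probe set lay below the array medians (6.88 to 6.97). The third Eif2ak3 probe set differed by 0.03.

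Ddit3 encodes CHOP, a transcription factor of prolonged stress. Its levels were 8.73, 8.85, 8.61 and 8.76 in wild-type and 8.76, 8.90, 8.80, 9.10 and 9.05 in lymphoma. Lymphomas 2, 4 and 5 were above the wild-type range, and lymphoma 4, low for most folding genes, was the highest. Ddit3 differed by 0.18 ± 0.09 (SE; limma adjusted p = 0.398), and its dimmer probe set by -0.23.

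The sensor gene Atf6 had levels of 9.42, 9.52, 9.25 and 9.35 in wild-type and 9.51, 9.37, 9.55, 9.38 and 9.82 in lymphoma. Lymphoma 5 stood clear of the wild-type range and lymphoma 3 just above it. The difference was 0.14 ± 0.11 (SE; limma adjusted p = 0.581), or 0.068 without lymphoma 5. Trib3, a pseudokinase induced by CHOP and ATF4, stood at 0.12 and the transcription factor gene Atf4 at 0.11. Ern1, the sensor that splices Xbp1 RNA, stood at 0.07, with lymphomas 5 and 1 highest (11.05 and 10.80) and lymphomas 2 and 4 lowest (9.79 and 10.02). An array level does not report on splicing of Xbp1 or on activity of the sensors.

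Over all 94 member probe sets limma called 0, against a background of 0.486% of all probe sets, and 12 (12.8%, against 13.9%) had an unadjusted p under 0.05, 9 of them higher and 3 lower. Of the 94, 68 had a positive difference (72.3%, against 47.2% of all probe sets). The probe sets of 12 of the 29 members with more than 1 disagreed in sign, namely Ddit3, Derl1, Derl2, Dnajc3, Eif2ak3, Ern1, Pdia4, Sec11c, Sec61a1, Spcs1, Ssr1 and Ssr4.

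Lymphoma 4 weighed on the calls. Without it limma called Creld2 (log2 difference 1.45, 2.73-fold, limma adjusted p = 0.0294) and Derl3 (0.88, 1.83-fold, 0.0330), 2 of 39 members against 0.687% of all genes. At an unadjusted p under 0.05, 15 members were then higher (8.2% of all genes), of which 10 were folding, 4 translocation and 1 degradation members. With lymphoma 4 left out, the values of 14 members lay apart and higher in lymphoma, against 5.18% of all genes. They were Creld2, Calr, Sdf2l1, Manf, Hsp90b1, Hspa5, Dnajb11, P4hb and Hyou1 of folding, Spcs3, Ssr4, Spcs1 and Ssr1 of translocation, and Derl3. With any other single array left out, that number was between 0 and 2. This array is the lowest for most members, so that leaving it out raises these counts by construction, and its label gives no reason to leave it out.

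The remaining pathway was taken from lists of 115 further genes, of which 110 were measured. At an unadjusted p under 0.05 limma had 22 of them higher (20%, against 6.69% of all genes) and 0 lower (against 8%), and 78 had a positive difference. The groups lay apart for 14, all higher in lymphoma (12.7%, against 3.29% of all genes). One gene passed the adjusted test: Nupr1, a stress-induced chromatin protein, rose by 1.26 (limma adjusted p = 0.0245), from between 7.26 and 7.39 in wild-type to between 8.01 and 9.12 in lymphoma. Lymphoma 4 was the highest for this gene.

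Of 21 other folding and redox genes 8 were higher at an unadjusted p under 0.05 and 0 were called, with the isomerase genes Pdia2 at 0.86 and Txndc5 at 0.60 and the prolyl isomerase gene Fkbp2 at 0.59. Of 23 other translocation and glycosylation genes 4 were higher at that threshold and 0 called, with Tram2 at 0.75, the signal recognition receptor gene Srprb at 0.36 and Rpn2, of the oligosaccharyltransferase, at 0.34. Of 19 other degradation genes the counts were 2 and 0, with the mannosidase gene Man1b1 at 0.44, the ubiquitin-conjugating enzyme gene Ube2j1 at 0.33 and the ligase gene Rnf139 at 0.28. Of 25 genes of transport between ER and Golgi they were 3 and 0, with the cargo lectin genes Lman2 and Lman1 at 0.43 and 0.37 and the coat gene Sec24d at 0.30. Among 22 other stress response genes 5 were higher at that threshold and Nupr1 was called. The differences of this list ran from -0.58 (Ddit4) to 1.37 (Asns, limma adjusted p = 0.257), and 8 of them were negative. Xbp1, the transcription factor that IRE1 activates, had levels of 12.26, 12.14, 12.39 and 12.25 in wild-type and 12.99, 12.26, 12.87, 12.17 and 13.42 in lymphoma. Lymphomas 5, 1 and 3 were above the wild-type range. Xbp1 differed by 0.48 ± 0.24 (SE; limma adjusted p = 0.389).

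**Figure D5:**
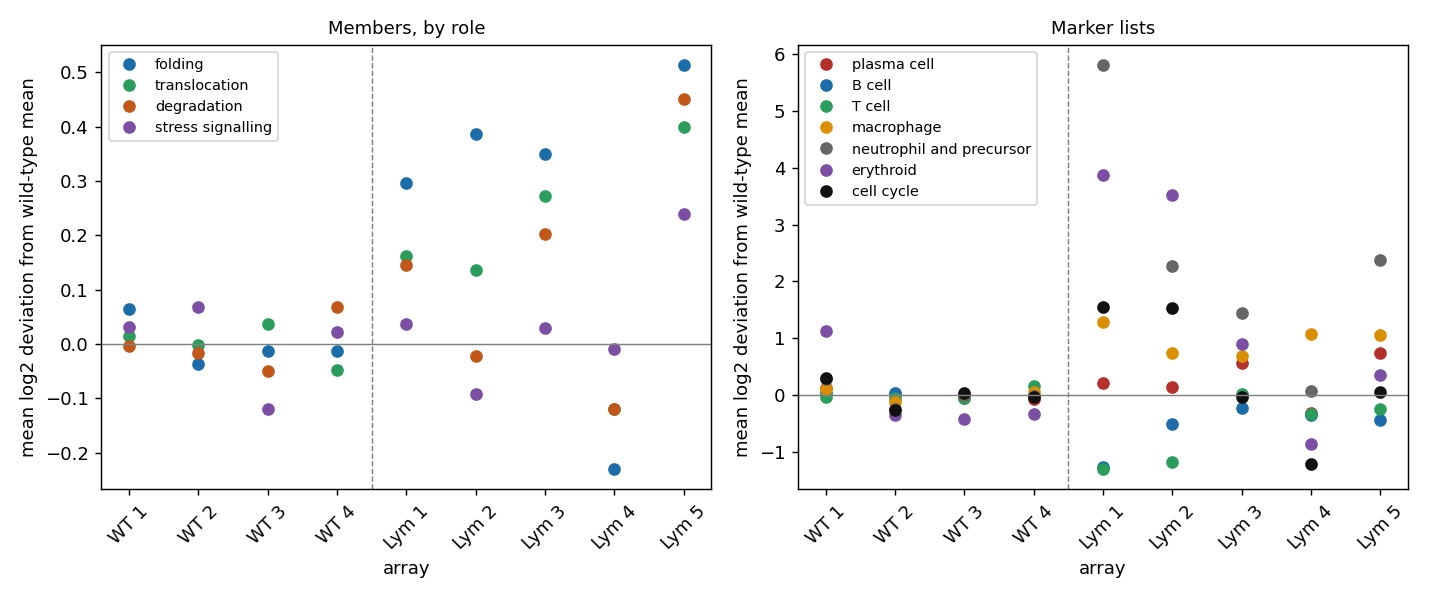
Mean log2 deviation from the wild-type mean on each array, for the 4 roles of the members (left) and for 7 marker lists (right; the axes differ in scale). Folding, translocation and degradation members are lowest in lymphoma 4 and highest in lymphoma 5, and plasma cell markers have the same extremes.

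Marker levels also differed between the arrays. None of the plasma cell markers was called by limma (0 of 12 measured, against 0.715% of all genes). An unadjusted p under 0.05 was reached by 4 (against 14.7% of all genes), of which 3 were higher in lymphoma (against 6.69%). The mean deviation of these 12 markers from the wild-type level was 0.73 in lymphoma 5 and 0.56 in lymphoma 3. It was 0.22 in lymphoma 1, 0.13 in lymphoma 2 and -0.32 in lymphoma 4. By this mean the lymphomas had the order of the members' mean deviations, while the median deviation put lymphoma 3 first (0.61, against 0.57 in lymphoma 5) and the summed level put lymphoma 1 before lymphoma 3. Igha and Jchain, the brightest of them, differed by 1.04 and 0.72. Mzb1 and Pou2af1 differed by 0.14 and 0.09, Irf4 and Slamf7 by -0.27 and -0.31, and Tnfrsf13b by -0.50, with all lymphomas below all wild-type spleens (limma adjusted p = 0.258). The summed log2 level of the list ran from 15.39 to 15.65 in wild-type and from 15.55 to 16.39 in lymphoma. Xbp1 is in both this list and the stress response list, and the part of plasma cells in the members' differences was not tested.

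Other marker lists had lymphoma 1 or 2 as an extreme, and lymphoma 4 was the lowest lymphoma for cell cycle, erythroid and neutrophil markers too. Cell cycle markers (0 of 11 called, Mki67 at 0.54 and Ccna2 at 0.74) deviated by 1.56 and 1.52 in lymphomas 1 and 2 and by -1.21 in lymphoma 4, with summed log2 levels of 14.18 to 14.63 in wild-type and 13.56 to 15.82 in lymphoma. Erythroid markers (0 of 10 called, Rhag at 2.36 and Alas2 at 2.13) deviated by 3.87 and 3.53 in lymphomas 1 and 2 and by -0.87 in lymphoma 4 (sums 10.31 to 12.31 and 9.68 to 15.45, wild-type spleen 1 being the highest of its group). Neutrophil and precursor markers (0 of 11, S100a9 at 3.41 and Lcn2 at 3.15) were highest in lymphoma 1, at 5.82, and stood at 0.073 in lymphoma 4 (sums 10.40 to 11.21 and 10.83 to 17.01). Of 12 macrophage markers 7 were called higher and 1 lower, against 0.407% and 0.308% of all genes (C1qb at 2.40 and C1qc at 2.34). Their mean was higher in all 5 lymphomas, by 0.68 to 1.28 (sums 14.37 to 14.61 and 14.93 to 15.34). Marco, the lower one, stood at -1.64, and Siglec1 at -0.06. B-cell markers (0 of 9 called, Fcer2a at -1.77 and Cr2 at -1.25) and T-cell markers (0 of 9, Cd8b1 at -1.69 and Cd8a at -1.0) had their lowest mean deviation in lymphoma 1, with sums of 16.07 to 16.12 and 15.04 to 16.04 for B cells and 13.12 to 13.36 and 11.91 to 13.28 for T cells, whose lowest sum was that of lymphoma 2. The Gapdh 3′ to 5′ log2 difference, a measure of RNA integrity, ran from 2.18 to 2.42 in wild-type and from 1.92 (lymphoma 5) to 2.80 (lymphoma 1) in lymphoma. The 18S log2 level ran from 12.15 to 12.37 in wild-type and from 12.18 to 13.37 (lymphoma 2) in lymphoma. Their part in the members' values was not tested beyond the Gapdh covariate given with the alternatives.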

How the data were processed

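RNA of 4 wild-type spleens and 5 lymphomas was hybridised to 1-colour Affymetrix mouse arrays. The authors deposited log2 values, and the submitters' processing notes name RMA as the method, without a version. RMA compresses differences near background. They were used as deposited. The 64 control probe sets were left out of the tests. Symbols came from the platform annotation (34958 probe sets with 1 symbol, 932 with several, 9211 with none), and probe sets with several named no gene. Limma 3.58.1 in R 4.3.3 (lmFit, eBayes, two-sided, no covariate) was fitted over all 18193 genes, and separately over all 45037 probe sets, with Benjamini-Hochberg adjustment and a threshold of 0.05. The fit was checked on simulated data.

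The members, lists and tests were chosen with earlier results of these data known. Every measured member is named. Values by array are given for members called, at an unadjusted p under 0.05 or with groups apart, for the 3 largest absolute differences of each role, and for Hspa5 and Xbp1. In each pathway list the called genes are named or else the 3 largest absolute differences. For the stress response list the lowest and the highest difference are named too. Promoters came from RefSeq (GRCm38.p6). The number of arrays limits precision. The other 21 settings are in the closing section. Python 3.11.15 and matplotlib 3.10.9 drew the figures.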

Additional observations from a re-analysis of the deposited data

Results flagged for a closer look

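Of 78 groups tested (39 members in the wild-type spleens and in the lymphomas), 7 held a sample whose gap to its nearest neighbour was large for the range of its group, where chance gives about 1 in 20. Lymphoma 4 was far below the other lymphomas for 3 chaperone genes: Hsp90b1 (12.30, next 12.84), Hspa5 (13.35, next 13.71) and Hyou1 (10.57, next 10.97). Lymphoma 2 was far below for Derl1 (12.23, next 12.69) and Syvn1 (11.27, next 11.58). Lymphoma 5 was far above for Herpud1 (12.18, next 11.58). Wild-type spleen 4 was far below the others for Sec11c (12.42, next 12.66).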

How the results depend on the processing

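Limma called 0 members in 20 of 21 alternative settings, the exception being that without lymphoma 4. Leaving out 1 array gave 0 to 2 called members, 2 to 15 members higher and 0 to 2 lower at an unadjusted p under 0.05, and 10 to 328 called genes in all, against 130. Members higher at that threshold, 3 as reported, were 6 with one variance for each group, 9 with array quality weights, 5 with the mean of all probe sets and 6 without lymphomas 1 and 2. The 1 lower member, Eif2ak3, missed that threshold with the replicate block and without lymphomas 1 and 2. It also missed it without wild-type spleen 1 and without wild-type spleen 2. Its difference stayed negative in all 21 settings, at -0.23 without lymphomas 1 and 2. Called genes in all were 315 with one variance for each group, 532 with array quality weights, 459 with the Gapdh covariate, 601 without lymphomas 1 and 2 and 48 without lymphomas 3 and 5. The replicate block left 7 called genes. The labels do not say that same-numbered arrays are paired. Their correlations of deviations were 0.118, -0.201, 0.141 and 0.004, which cannot settle whether they were. Lymphoma 5 has no same-numbered spleen, so the block gave the same medians by role as leaving it out. The median of degradation members (0.10) was 0.0215 without lymphoma 5 and -0.0216 without lymphomas 3 and 5, and 0.175 without lymphoma 2. That of translocation members (0.15) was 0.094 without lymphoma 5 and 0.046 with the mean of all probe sets, and that of stress signalling members (0.12) was 0.072 without wild-type spleen 3 and 0.035 with the mean of all probe sets. Of 811 member values under the alternatives 777 kept their sign, and 14 members changed sign at least once, among them Edem1, Ern1 and Pdia4. Ddit3 moved to -0.025 with the mean of all probe sets, and Ssr4 to -0.23 with probe sets without a suffix in their name.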

Other observations

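Ero1l is filed under its current symbol Ero1a in the annotation and so falls outside the rule for the members. Ero1a, which reoxidises protein disulphide isomerase, had levels of 9.54, 9.47, 9.54 and 9.58 in wild-type and 9.94, 10.12, 9.43, 9.33 and 9.31 in lymphoma. Lymphomas 1 and 2 were high and lymphoma 5, the highest for most members, was the lowest. The difference was 0.09 ± 0.17 (SE; limma adjusted p = 0.847).

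Among genes that are not members, 11 measured ones hold the ER stress response element in their promoter window. Their differences lay between -0.34 (Pan2, limma adjusted p = 0.217) and 0.13 (Acacb), with a median of 0.10, and limma called 0 of them, with 1 lower at an unadjusted p under 0.05.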
